A study of Drosophila melanogaster with 11 samples.

Results

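Peptidoglycan recognition proteins (PGRPs) are the fly's sensors and cleavers of bacterial cell wall. Their transcripts were followed here in heads of adult female w1118 flies exposed to paraquat, nicotine or both. The members were the 10 genes PGRP-LA, PGRP-LB, PGRP-LC, PGRP-LE, PGRP-LF, PGRP-SA, PGRP-SB1, PGRP-SC1a, PGRP-SC2 and PGRP-SD, found by gene symbol in the platform annotation. Of these, 6 had a probe set (the group of probes read out as 1 value) of their own, among 18952 probe sets on the array. PGRP-SC1a shared its probe set with the near-identical PGRP-SC1b. PGRP-LC, PGRP-SA and PGRP-SD matched no probe set in the annotation used and were not analysed here.

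PGRPs bind peptidoglycan, the mesh of sugars and peptides in bacterial walls. PGRP-LC at the cell surface and PGRP-LE, secreted or inside the cell, start the IMD pathway, whose transcription factor Relish switches on antimicrobial peptide genes in the fat body and in barrier tissues. PGRP-SA and PGRP-SD feed the Toll pathway instead. PGRP-LB, PGRP-SB1 and the PGRP-SC proteins are amidases that cut peptidoglycan, and PGRP-LB, itself a target of the IMD pathway, removes the ligand that drives it. PGRP-LF sits in the membrane and restrains PGRP-LC, while PGRP-LA modulates IMD signalling in barrier tissues.

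All flies were w1118 females, collected within a day of eclosion and pooled as 20 heads per array. The joint exposure (n = 3 arrays) had 0.1 mg/ml nicotine in the food for 10 days and then 5 mM paraquat, a herbicide that generates superoxide, with the same nicotine for 6 days. The paraquat group (n = 2) had plain food for 10 days and 5 mM paraquat for 6 days, the nicotine group (n = 3) 0.1 mg/ml nicotine for all 16 days, and the control group (n = 3) plain food throughout. The submitters left out 1 further paraquat replicate for degraded RNA before normalization. Pools of whole heads mix many cell types. The sample titles call the arrays of a group biological replicates, but nothing in the sources says that the vials were raised separately. The p-values rest on the spread among these pools, and how independent the pools were is not known.

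The values are log2 expression values. Testing was limited to the 9104 probe sets that reached log2 4 on at least 2 arrays. All 6 members with a probe set of their own passed. Neuronal, glial and head fat body markers were high on every array: their summed levels (log2 of the sum of linear values) ran from 12.99 to 14.45, from 13.79 to 14.54 and from 17.10 to 18.06. A difference in the control probe sets' 3' minus middle signal, which grows as RNA is broken or copied short, ran from 1.39 log2 on control replicate 3 to 4.86 on joint exposure replicate 1. In this measure these 2 arrays stood apart from the other 9, which lay between 2.23 and 3.18. In 3' minus 5' signal control replicate 3 was again lowest (5.09). Joint exposure replicate 1 (11.25) lay there between joint exposure replicate 3 (11.41) and nicotine replicate 3 (11.21). By the first measure, averaged paraquat differences of members and called pathway genes are also given without control replicate 3 and joint exposure replicate 1. Values and marker sums are given for all 11.

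With paraquat, 2 of the 6 members passed the test in the contrast averaged over flies with and without nicotine. Both encode amidases, and they went in opposite directions: PGRP-LB rose and PGRP-SB1 fell. Over all 9104 probe sets 3.69% were called in this contrast, 2.93% higher and 0.758% lower. The receptor gene PGRP-LE was the third member whose 5 arrays with paraquat did not overlap the 6 without. Such a separation held for 6.16% of all tested probe sets, 4.17% higher and 1.99% lower. Of the 6 members 3 were higher and 3 lower, and the median difference was 0.35 log2, beside -0.0073 over all tested probe sets. With 6 values this median is the midpoint between PGRP-LF (-0.013) and PGRP-LE (0.71). PGRP-SC2 was high on 2 of the 3 arrays of the joint exposure, and PGRP-LA and PGRP-LF had small differences.

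**Figure D1:**
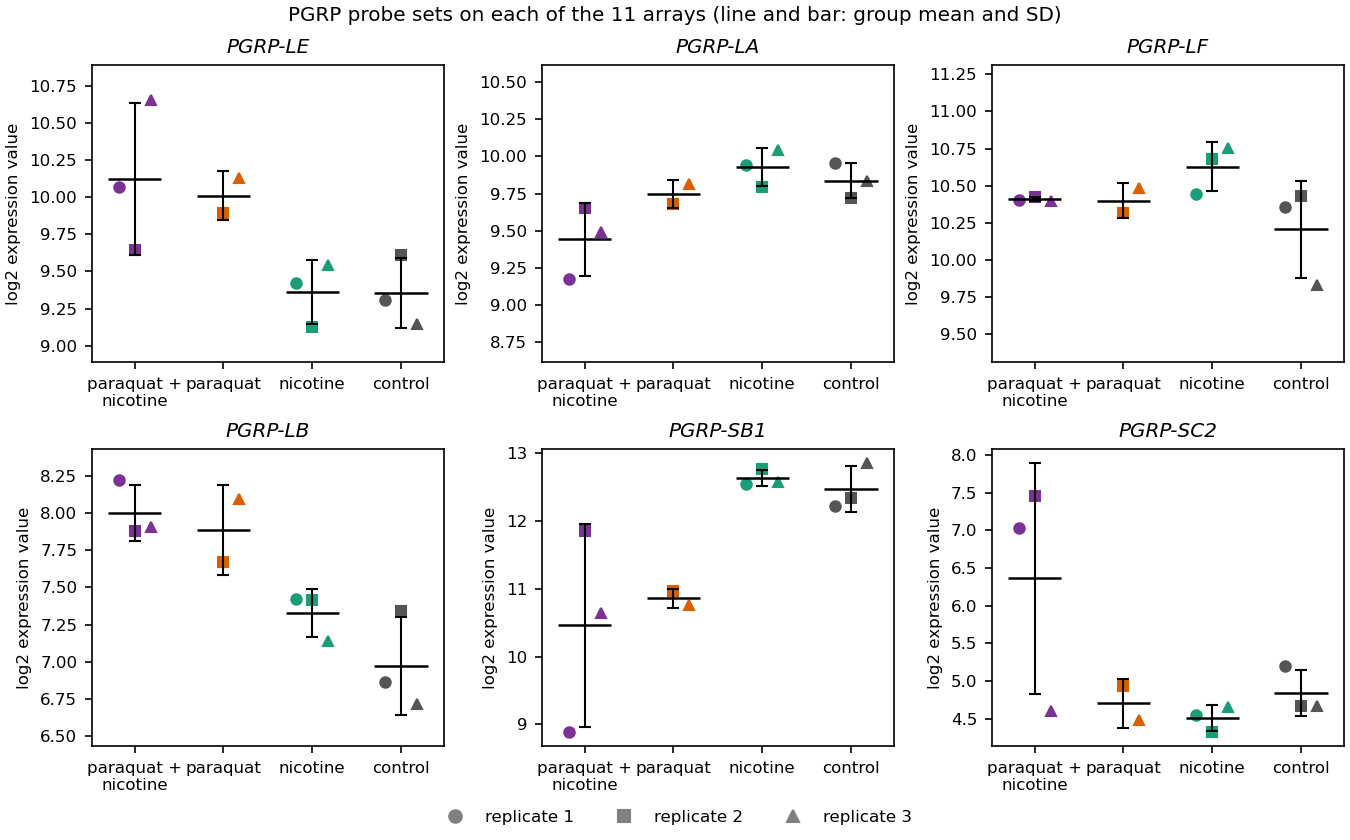
Log2 expression values of the 6 PGRP probe sets (1 panel each, with its own vertical axis) on all 11 arrays, by exposure group; symbols mark the replicate number, lines and bars the group mean and SD. PGRP-LB and PGRP-LE are higher and PGRP-SB1 is lower on all 5 arrays with paraquat, and PGRP-SC2 stands at 7.03 and 7.46 on 2 joint exposure arrays and between 4.32 and 5.20 on the other 9.

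PGRP-LE, the receptor of the IMD pathway that had a probe set, was at 10.07, 9.64 and 10.66 log2 on joint exposure replicates 1, 2 and 3, against 9.42, 9.12 and 9.54 with nicotine. Paraquat replicates 2 and 3 were at 9.89 and 10.13, against 9.31, 9.61 and 9.15 in control. The 2 sets of arrays met almost edge to edge, with 0.034 log2 between joint exposure replicate 2 and control replicate 2. The averaged log2 difference was 0.71 ± 0.19 (SE; 95% interval 0.27 to 1.15), which missed the threshold (limma adjusted p = 0.0860). It was 0.66 ± 0.29 without nicotine (adjusted p = 0.470) and 0.76 ± 0.26 with it (adjusted p = 0.291). Without joint exposure replicate 2 the averaged difference was 0.83 and passed (adjusted p = 0.0263), as it did with array quality weights (adjusted p = 0.0230). Those 2 settings called 586 and 1627 of all 9104 probe sets, against 336 in the main fit. The other 18 alternatives missed the threshold, with adjusted p up to 0.354. Without both arrays of unusual 3' signal the difference was 0.67 log2 (adjusted p = 0.162). Group means ordered as 10.12 ± 0.51 (SD, n = 3) in the joint exposure, 10.01 ± 0.17 (n = 2) with paraquat, 9.36 ± 0.21 (n = 3) with nicotine and 9.35 ± 0.23 (n = 3) in control. The joint exposure and paraquat groups overlapped array by array, as did the nicotine and control groups.

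PGRP-LA, the modulator of IMD signalling, had 9.17, 9.66 and 9.49 log2 in the joint exposure, against 9.94, 9.79 and 10.05 with nicotine. With paraquat alone it had 9.68 and 9.81, against 9.95, 9.72 and 9.83 in control. The joint exposure arrays lay below all others, narrowly so against paraquat replicate 2 (9.66 against 9.68), and the other 3 groups overlapped. A lack of overlap with the joint exposure held for 15% of all tested probe sets against nicotine. It held for 18.3% against paraquat and 19.7% against control. The difference with nicotine was -0.49 ± 0.17 log2 (95% interval -0.86 to -0.11, limma adjusted p = 0.295) and without it -0.088 ± 0.19 (adjusted p = 0.957). Averaged, it was -0.29 ± 0.13 (adjusted p = 0.276), and -0.22 without both arrays of unusual 3' signal (adjusted p = 0.326). The lowest value, 9.17, came from 1 of those arrays, joint exposure replicate 1.

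PGRP-LF, whose product holds PGRP-LC in check, was nearly constant in the joint exposure at 10.40, 10.42 and 10.40 log2, against 10.44, 10.68 and 10.76 with nicotine. Paraquat arrays stood at 10.32 and 10.48, against 10.36, 10.43 and 9.83 in control. Its averaged paraquat difference was -0.013 ± 0.14 log2 (95% interval -0.33 to 0.30, limma adjusted p = 0.978), made of 0.19 ± 0.21 without nicotine (adjusted p = 0.850) and -0.22 ± 0.19 with it (adjusted p = 0.721). The lowest array was control replicate 3, the one with the smallest 3' minus middle difference, and without both unusual arrays the averaged difference was -0.11 (adjusted p = 0.620). PGRP-LA and PGRP-LF flank PGRP-LC in the RefSeq gene table of Drosophila Release 6, so 2 of the 3 genes of that cluster were measured and neither passed the test.

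PGRP-LB, which cuts peptidoglycan and dampens IMD signalling, was at 8.22, 7.88 and 7.91 log2 in the joint exposure, against 7.42, 7.41 and 7.14 with nicotine. It was at 7.67 and 8.10 with paraquat, against 6.86, 7.34 and 6.71 in control. All 5 arrays with paraquat (7.67 to 8.22) lay above all 6 without (6.71 to 7.42). It rose by 0.80 ± 0.16 log2 averaged over both nicotine levels (1.74-fold, 95% interval 0.44 to 1.15, limma adjusted p = 0.0268). The size was 0.92 ± 0.24 without nicotine (1.89-fold, adjusted p = 0.167) and 0.68 ± 0.21 with it (1.60-fold, adjusted p = 0.244), and neither passed alone. This gene has 6 RefSeq transcripts, some of which encode secreted and others intracellular proteins. The probe set gives 1 value for the gene, and which of the transcripts it reads was not checked.

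Group means of PGRP-LB were 8.0 ± 0.19 (SD, n = 3) in the joint exposure, 7.89 ± 0.30 (n = 2) with paraquat, 7.33 ± 0.16 (n = 3) with nicotine and 6.97 ± 0.33 (n = 3) in control. Arrays overlapped between the first 2 of these groups and between the last 2. The joint exposure exceeded control by 1.03 ± 0.21 log2 (2.04-fold, limma adjusted p = 0.0732). The averaged call was lost when any 1 of 6 arrays was left out: paraquat replicate 3 (adjusted p = 0.170), control replicates 1 (0.0615) and 3 (0.0549), and nicotine replicates 1 (0.0639), 2 (0.0536) and 3 (0.0642). The difference without them stayed between 0.69 and 0.82 log2. It was also lost with the 3' minus middle difference as a covariate (0.72 log2, adjusted p = 0.0619) and with both arrays of unusual 3' signal removed (0.68 log2, adjusted p = 0.0649).

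PGRP-SB1, a secreted amidase, had 8.88, 11.85 and 10.65 log2 in the joint exposure, against 12.55, 12.77 and 12.58 with nicotine. It had 10.96 and 10.76 with paraquat, against 12.22, 12.35 and 12.86 in control. Again all 5 arrays with paraquat (8.88 to 11.85) were apart from all 6 without (12.22 to 12.86), this time below them. It fell by 1.89 ± 0.44 log2 in the averaged contrast (3.72-fold lower, 95% interval -2.89 to -0.90), just inside the threshold (limma adjusted p = 0.0499). Its difference ranked 35th from the lowest among the 9104 probe sets.

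The joint exposure arrays of PGRP-SB1 spread widely (SD 1.49, n = 3), against an SD of 0.14 (n = 2) with paraquat, 0.12 (n = 3) with nicotine and 0.34 (n = 3) in control. Its mean was 10.46 in the joint exposure, 10.86 with paraquat, 12.63 with nicotine and 12.48 in control, with overlap within the first pair and within the second. The difference was -2.17 ± 0.59 log2 with nicotine (limma adjusted p = 0.180), -1.61 ± 0.66 without it (adjusted p = 0.422) and -2.02 ± 0.59 for the joint exposure against control (adjusted p = 0.182). The lowest value came from joint exposure replicate 1, the array with the largest 3' minus middle difference. Without that array the averaged difference was -1.50 and passed (adjusted p = 0.0168). With the covariate it was -1.33 (adjusted p = 0.0127), and without that array and control replicate 3 together it was -1.40 (adjusted p = 0.0296). Without both, the joint exposure differed from control by -1.03 log2 (adjusted p = 0.409).

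The averaged call for PGRP-SB1 was lost when any 1 of 9 arrays was left out, with adjusted p between 0.0790 without control replicate 1 and 0.222 without paraquat replicate 3. In that range lay control replicates 2 and 3, paraquat replicate 2, joint exposure replicate 3 and nicotine replicates 1, 2 and 3. It was kept without joint exposure replicate 1 or 2 (adjusted p = 0.00513 for the second). The differences over these 11 settings ran from -2.24 to -1.50 log2.

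**Figure D2:**
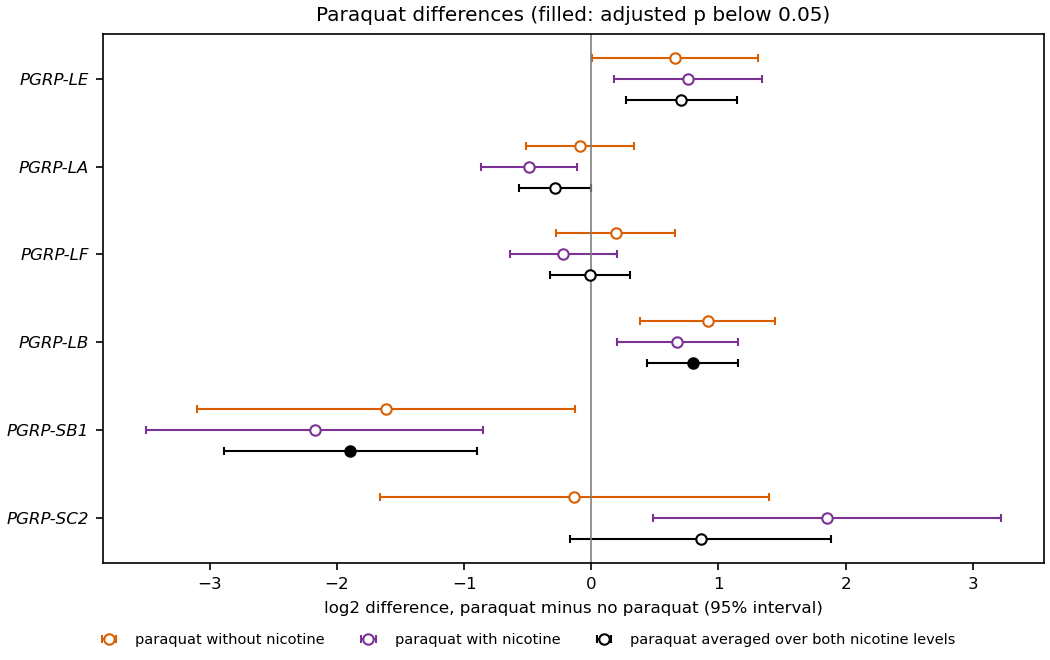
Log2 difference (horizontal axis, paraquat minus no paraquat, with 95% intervals from the limma fit) of each PGRP probe set, without nicotine, with nicotine and averaged; filled points have an adjusted p below 0.05. PGRP-LB at 0.80 and PGRP-SB1 at -1.89 are the 2 filled points, both in the averaged contrast, and the interval of PGRP-LE (0.27 to 1.15) lies above 0.

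**Figure D3:**
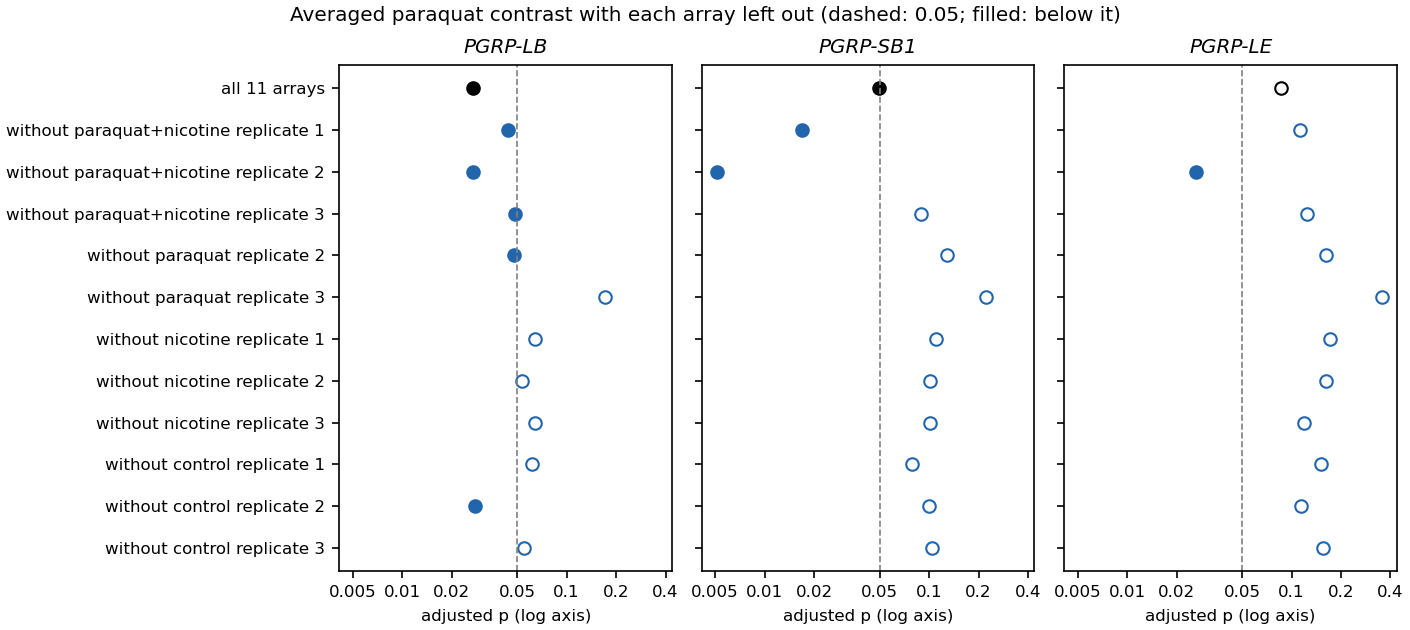
Adjusted p (log axis) of PGRP-LB, PGRP-SB1 and PGRP-LE in the averaged paraquat contrast with all 11 arrays and with each array left out in turn; the dashed line is 0.05 and filled points lie below it. PGRP-LB keeps its call in 5 of 11 settings and PGRP-SB1 in 2, and PGRP-LE gains one without joint exposure replicate 2 (adjusted p = 0.0263).

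Marker sums of head fat body and of neurons were lowest on the array where PGRP-SB1 was lowest. The fat body of the head makes yolk, storage and immune proteins. Its markers (Lsp2, Yp1, Yp2, Yp3, fit and apolpp, 6 of 7 listed genes with a probe set, none below log2 4 on all arrays) had a summed level of 17.10 to 17.92 log2 in the joint exposure, 17.48 to 17.50 with paraquat, 17.87 to 17.99 with nicotine and 17.90 to 18.06 in control. Joint exposure replicate 1 was lowest in both PGRP-SB1 (8.88) and this sum (17.10). Joint exposure replicate 2 was highest among the arrays with paraquat in both (11.85 and 17.92). Its fat body sum lay within the ranges of the nicotine and control arrays, while its PGRP-SB1 value lay below them. All 6 markers had a lower mean with paraquat, with a median difference of -0.58 log2. By limma 0 of 6 passed the test, and 5 had an unadjusted p below 0.05, beside 17.6% of all tested probe sets. The sum of 5 neuronal markers was 12.99, 13.51 and 13.16 log2 on joint exposure replicates 1, 2 and 3, against 13.59 to 13.95 with nicotine, and 13.51 and 13.33 with paraquat, against 13.78 to 14.45 in control. Joint exposure replicate 1 was lowest here too. In this sum all 5 arrays with paraquat lay below all 6 without, by a narrow margin (13.51 against 13.59). Each of the 5 markers taken alone overlapped between these arrays. Among all tested probe sets 1.99% were lower with paraquat without overlap. The glial marker sum was also lowest on joint exposure replicate 1 (13.79), the array with the largest 3' minus middle difference. All 5 neuronal markers had a lower mean with paraquat (median -0.62 log2). By limma 0 of 5 passed, and 4 had an unadjusted p below 0.05, beside the same 17.6%. Fewer cells of a type and less RNA per cell cannot be told apart in pooled heads, and the part of these markers in the PGRP-SB1 difference was not tested. The summed level of 8 haemocyte markers (Hml, NimC1 and 6 others, none below log2 4 on all arrays) lay between 13.24 and 13.56 log2. Single markers could vary more than this sum, as eater did from 3.82 on control replicate 2 to 6.39 on paraquat replicate 3. Of the 8 markers 0 were called.

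PGRP-SC2, an amidase best known from the gut, was at 7.03, 7.46 and 4.61 log2 in the joint exposure, against 4.55, 4.32 and 4.66 with nicotine. With paraquat it was at 4.94 and 4.48, against 5.20, 4.67 and 4.67 in control. Thus 2 arrays of the joint exposure stood above every other array, and the third lay among the rest. The difference of paraquat with nicotine was 1.85 ± 0.61 log2 (3.61-fold, 95% interval 0.49 to 3.22, limma adjusted p = 0.271), and without nicotine it was -0.13 ± 0.68 (adjusted p = 0.99). Averaged, it was 0.86 ± 0.46 (adjusted p = 0.377), and the joint exposure was 1.52 ± 0.61 above control (adjusted p = 0.261).

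These values turned on which joint exposure array was kept. Without replicate 3, the low array, PGRP-SC2 was 2.73 log2 higher with paraquat on nicotine (adjusted p = 0.00145), 2.40 higher in the joint exposure than in control (adjusted p = 0.00336) and 1.30 higher averaged (adjusted p = 0.00733). Without replicate 2, a high array, the same differences were 1.31 (adjusted p = 0.301), 0.97 (adjusted p = 0.366) and 0.59 (adjusted p = 0.481). Without replicate 1, the other high array and the one with the largest 3' minus middle difference, they were 1.52 (adjusted p = 0.561), 1.19 (adjusted p = 0.515) and 0.69 (adjusted p = 0.487). With both unusual arrays removed the averaged difference was 0.65 (adjusted p = 0.520). Midgut digestive genes were high on the same arrays. The summed level of 8 midgut markers was 16.27, 15.65 and 13.30 log2 on joint exposure replicates 1, 2 and 3, against 10.92 and 11.59 with paraquat, 8.21 to 13.53 with nicotine and 9.35 to 13.06 in control. The serine protease gene Jon25Bi was at 7.49 and 9.71 on the 2 arrays where PGRP-SC2 was high and at 2.11 on the third, against at most 2.31 on the other 8 arrays. Of the list, lambdaTry and LManV lay below log2 4 on all arrays. By limma 0 of the 6 tested midgut markers were called in the averaged contrast (1 had an unadjusted p below 0.05, beside 17.6% of all probe sets). For paraquat with nicotine all 6 were higher, with a median of 4.11 log2. Of these 0 were called, and 5 had an unadjusted p below 0.05, beside 11.5% of all probe sets. Jon25Bi and Jon99Ci passed the low-value filter only through arrays of the joint exposure, so these counts are descriptions. The part of midgut tissue in the PGRP-SC2 values was not tested.

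**Figure D4:**
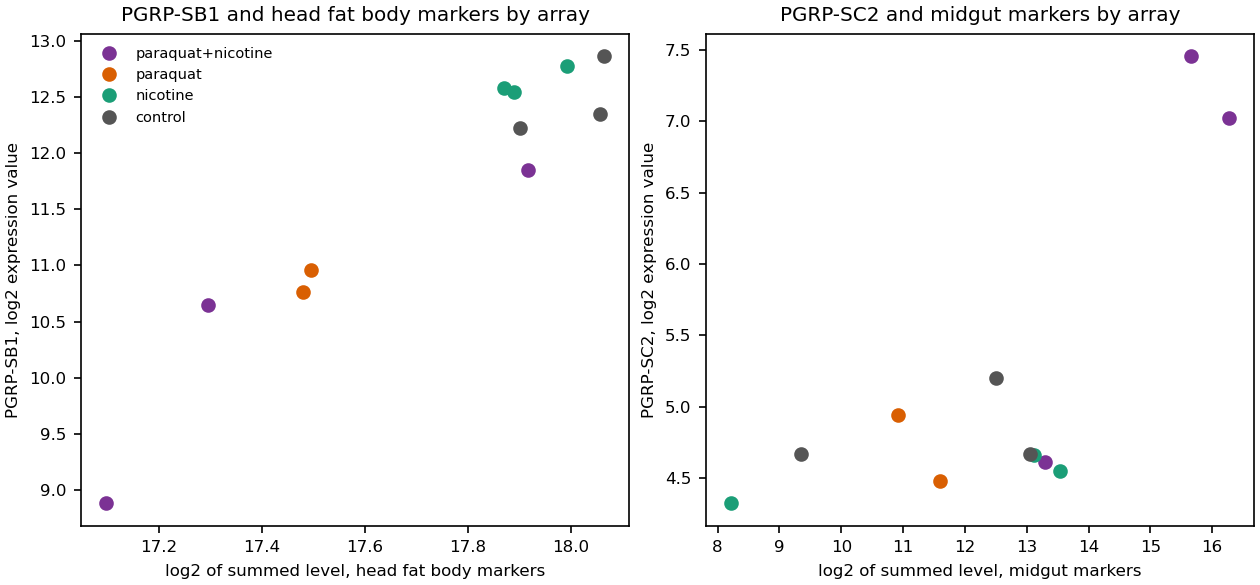
PGRP-SB1 against the summed level of head fat body markers (left) and PGRP-SC2 against that of midgut markers (right), both on log2 scales, with 1 point per array coloured by exposure group. The array with the lowest PGRP-SB1 value (8.88) has the lowest fat body sum (17.10), and the 2 arrays with PGRP-SC2 at 7.03 and 7.46 have the highest midgut sums (16.27 and 15.65).

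The remaining PGRP probe sets were at background. The probe set shared by PGRP-SC1a and PGRP-SC1b was at 2.11 log2, the lowest value of the table, on all 11 arrays, so nothing can be said of either gene's change. PGRP-SB2, the gene next to PGRP-SB1, was also at 2.11 on all arrays. The probe set shared by PGRP-LD and Pmi lay between 2.13 and 2.46.

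Nicotine moved no PGRP past the test. In the contrast averaged over both paraquat levels, 0 of 6 members were called by limma, none had an unadjusted p below 0.05, and differences lay between -0.12 for PGRP-SB1 and 0.66 for PGRP-SC2. Across all probe sets 0% were called, while 336 of 9104 had an unadjusted p below 0.05. PGRP-LB was 0.24 ± 0.16 log2 higher on nicotine (95% interval -0.12 to 0.59, adjusted p = 0.833). Without paraquat 1 of 6 members had an unadjusted p below 0.05, beside 1.97% of all probe sets, and among paraquat-fed flies 1 of 6, beside 3.02%. In the first of these PGRP-LF had all 3 nicotine arrays above all 3 control arrays, and PGRP-SC2 had all 3 below. Such a separation held for 5.83% of all tested probe sets. Both were edge to edge: the nearest nicotine and control arrays were at 10.44 and 10.43 log2 for PGRP-LF and at 4.66 and 4.67 for PGRP-SC2. The PGRP-LF difference did not pass (0.42 ± 0.19 log2, unadjusted p = 0.0490, adjusted p = 1). Among paraquat-fed flies PGRP-SC2 was 1.65 ± 0.68 log2 higher with nicotine (adjusted p = 0.962), again through joint exposure replicates 1 and 2. It was 2.53 without replicate 3 (adjusted p = 0.00512), 1.11 without replicate 2 (adjusted p = 0.657) and 1.32 without replicate 1 (adjusted p = 1).

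In the paraquat contrasts within 1 nicotine level, the comparison of joint exposure with control, and the interaction, limma called 0 of 6 members. Calls over all probe sets were 0.341% for paraquat without nicotine, 0.45% with nicotine, 0.33% for the joint exposure and 0% for the interaction. Unadjusted p-values below 0.05 were found for 3, 5, 5 and 0 of the 6 members, beside 10.5%, 11.5%, 16.5% and 1.23% of all probe sets. The contrasts of paraquat without nicotine and of the joint exposure share the control arrays. Whether nicotine changed the paraquat response was tested by the interaction, which for PGRP-SC2 was 1.99 ± 0.91 log2 (95% interval -0.064 to 4.04, adjusted p = 1) with all arrays and 2.87 without joint exposure replicate 3 (adjusted p = 0.0158). That was the 1 call among 20 alternatives, over which the interaction ran from 1.38 to 2.87. The other 5 members had interactions between -0.56 and 0.10.

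Downstream of the receptors, 1 of 17 tested genes of the IMD pathway passed the test, beside 3.69% of all tested probe sets. Of 20 listed genes, 17 were tested, 12 of them higher and 5 lower with paraquat averaged, with a median of 0.15 log2 beside -0.0073 over all probe sets. POSH, which encodes a scaffold and ubiquitin ligase acting on the kinase Tak1, was the 1 member called: it rose by 0.82 ± 0.19 log2 (limma adjusted p = 0.04997). It was at 9.62, 9.05 and 9.74 in the joint exposure, against 8.92, 8.78 and 8.19 with nicotine, and at 9.28 and 9.67 with paraquat, against 8.88, 8.56 and 8.58 in control. Its arrays with and without paraquat did not overlap, but the call remained in 1 of 11 settings that left out 1 array, joint exposure replicate 2 (adjusted p 0.0199 to 0.268), and was lost without both unusual arrays (0.76 log2, adjusted p = 0.124). The negative regulator gene pirk, named after its values were seen, ranged over the arrays from 4.87 log2 on control replicate 3 to 9.74 on joint exposure replicate 2. The adaptor gene imd was at 0.30 ± 0.15 (adjusted p = 0.334) and casp, whose product holds Relish processing back, at 0.37 ± 0.12 (adjusted p = 0.152). Rel, the gene of Relish itself, was 0.43 ± 0.14 log2 higher on nicotine averaged over both paraquat levels, which did not pass (unadjusted p = 0.0137, adjusted p = 0.833).

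Of 20 Toll pathway genes 17 were tested, 9 higher and 8 lower, with a median of 0.096 log2. The adaptor gene Myd88 was the 1 call among these 17, beside 3.69% of all tested probe sets. It rose by 0.74 ± 0.16 log2 (limma adjusted p = 0.0328). That call remained in 3 of 11 settings that left out 1 array, namely control replicate 3 or joint exposure replicate 1 or 2 (adjusted p 0.0440 to 0.203), and without both unusual arrays (0.66 log2, adjusted p = 0.0469). The kinase gene pll was at 1.18 ± 0.31 (adjusted p = 0.0731) and the protease gene spirit at 0.54 ± 0.16 (adjusted p = 0.0956). Leaving out 1 array gave a call for pll without joint exposure replicate 1 (1.34 log2, adjusted p = 0.0448) and for spirit without nicotine replicate 1 (0.66 log2, adjusted p = 0.0417).

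Antimicrobial peptide genes, the effectors that both pathways switch on, went in both directions. Of 20 listed genes 7 were tested, and 1 was called higher and 1 lower averaged, beside 2.93% and 0.758% of all tested probe sets. In that contrast 2 of the 7 were higher and 5 lower, with a median of -0.40 log2. The tally was not the same at both nicotine levels: 5 were higher and 2 lower without it (median 0.31), and 2 were higher and 5 lower with it (median -1.31), a difference between levels that was not tested for the list. Def, which encodes defensin, was at 8.36, 7.70 and 9.39 log2 in the joint exposure, against 4.83, 5.02 and 4.73 with nicotine. It was at 9.13 and 9.32 with paraquat, against 6.39, 4.71 and 6.86 in control. It rose by 3.43 ± 0.41 log2 averaged (10.8-fold, limma adjusted p = 0.00297), and its arrays with and without paraquat did not overlap. This call remained in all 20 alternatives (adjusted p 0.000368 to 0.0277), with 3.68 log2 without both unusual arrays. Drsl4, a drosomycin-like gene, fell by 3.72 ± 0.84 log2 (adjusted p = 0.0435), a call that remained in 2 of 11 settings that left out 1 array, joint exposure or nicotine replicate 2 (adjusted p 0.00256 to 0.212), and was lost without both unusual arrays (-3.17 log2, adjusted p = 0.124). AttD, an attacin gene, lay below log2 4 on all 6 arrays without paraquat and on joint exposure replicate 2, and at 4.52 to 8.82 on the other 4 with it. It is 1 of the 2 genes counted as higher, and it passed the low-value filter only through arrays with paraquat, so its test is not given.

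**Figure D5:**
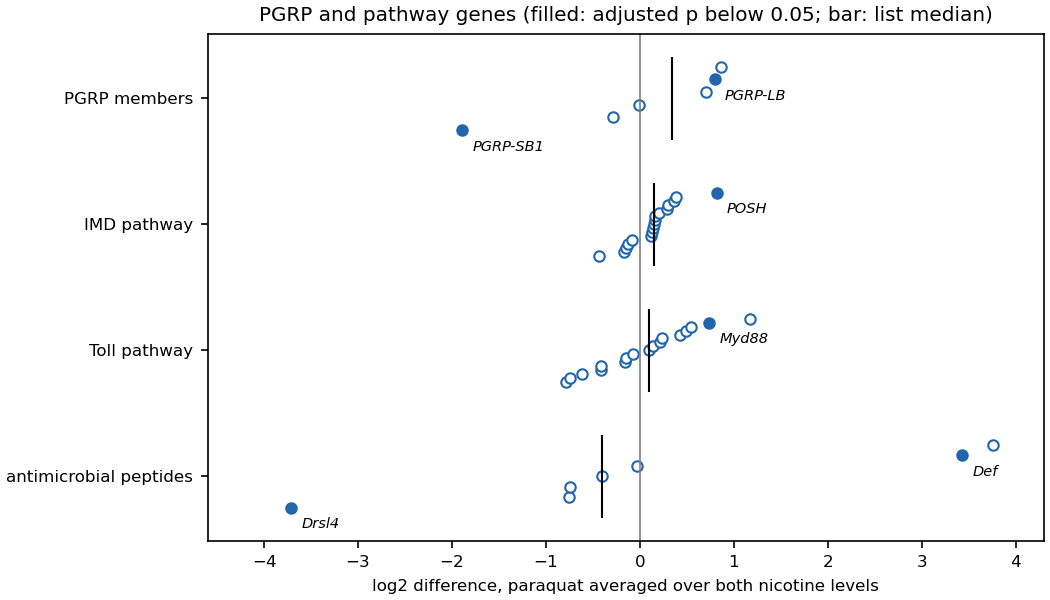
Log2 difference with paraquat, averaged over both nicotine levels, of each tested gene of the PGRP members and of the IMD, Toll and antimicrobial peptide lists (1 point per gene, filled where the adjusted p is below 0.05, bar at the list median). The filled points are PGRP-LB, PGRP-SB1, POSH, Myd88, Def and Drsl4, and the medians lie at 0.35, 0.15, 0.096 and -0.40.

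The patterns over the 11 arrays most like that of PGRP-LB belonged to Grip84, which encodes a gamma-tubulin ring protein (Pearson r = 0.923), the cytochrome P450 gene Cyp4p1 (0.919) and the arginyltransferase gene Ate1 (0.918). Their means were higher in both paraquat groups than in the other groups, as for Cyp4p1 with 12.95 log2 in the joint exposure, 12.75 with paraquat, 12.08 with nicotine and 11.84 in control. Those most like PGRP-SB1 were the nucleoporin gene Nup44A (r = 0.984), CG7778 (0.984) and the cytochrome P450 gene Cyp6a2 (0.974). Cyp6a2 averaged 9.63 log2 in the joint exposure, 9.76 with paraquat, 10.70 with nicotine and 10.61 in control. These values describe likeness across arrays that share exposures and RNA quality, and were picked as the highest among all tested probe sets of 1 gene.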

How the data were processed

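Expression was measured on 11 Affymetrix arrays, each hybridised with amplified RNA of 20 pooled heads. The authors deposited log2 values per probe set, made with GCRMA per the submitters' processing notes (version and array build not given in the sources used here). GCRMA puts dim probe sets at a common floor: 39.9% of values lay within 0.01 of the minimum, so changes below that floor cannot be seen. Arrays have no read depth, and their number limits precision.

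The deposited values were used unchanged. Control probe sets were dropped, and so were probe sets below log2 4 on all arrays or all but 1. For the remaining 9104, group means were fitted with limma 3.58.1 (R 4.3.3, lmFit and eBayes), and two-sided p-values were adjusted by the Benjamini-Hochberg method over all of them, with calls at 0.05. The fit was tested on simulated data. Fold changes are powers of 2 of log2 differences. Genes were named through the platform annotation, and genes on shared probe sets were not tested.

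The PGRP members and gene lists were chosen with earlier results of these data known. The text names every PGRP member with a probe set, called genes of the lists with the 3 smallest p-values of each (without a test for AttD), and the 3 probe sets most like each called member. Alternatives covered filters, centring, prior, array weights, a replicate block, an RNA quality covariate and each array left out.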

Additional observations from a re-analysis of the deposited data

How the results depend on the processing

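The count of 2 called PGRP probe sets in the averaged paraquat contrast became 0 without a filter on low values, where PGRP-LB had an adjusted p of 0.0780 and PGRP-SB1 of 0.197. The cause was not tested. It became 1 with the 3' minus middle covariate and 1 without the 2 arrays farthest out in that difference, an alternative chosen after seeing the data. Array quality weights gave 1 PGRP call for paraquat without nicotine and 1 with nicotine, where the count was 0. Over all 9104 probe sets these weights gave 765 and 312 calls, against 31 and 41 in the main fit. The cause was not tested. With each array left out in turn, the PGRP counts ranged from 0 to 3 for paraquat averaged (3 without joint exposure replicate 2). They ranged from 0 to 1 for paraquat with nicotine and 0 to 1 for nicotine with paraquat. For the joint exposure against control they ranged from 0 to 2, and for the interaction from 0 to 1. Direction turned for 2 values near 0, neither called: PGRP-LF in the averaged contrast (-0.107 to 0.0433 log2 with 1 array left out) and PGRP-SC2 for paraquat without nicotine (-0.36 to 0.095 log2 with 1 array left out). Over all probe sets the averaged paraquat count of 336 was 137 without a filter, 1627 with array weights and 53 without paraquat replicate 3. Without joint exposure replicate 2 it was 586, beside 242 for paraquat with nicotine and 381 for the joint exposure against control. Without joint exposure replicate 3, 32 probe sets were called for nicotine with paraquat and 21 for the interaction.

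Replicate numbers were checked for pairing: of 15 same-numbered pairs, 9 had correlated deviations above 0.1 (range -0.067 to 0.497). The labels do not say that equal numbers form pairs, so the main fit did not take them as pairs. With the replicate block the averaged count stayed at 2, PGRP-LB was at 0.81 log2 (limma adjusted p = 0.0444), PGRP-SB1 at -2.05 (adjusted p = 0.0321) and PGRP-SC2 without nicotine turned to 0.041. Each array correlated best with its own number in 9 of 11 cases, a hint from the data and not from the design. With n = 2 the deviations of the paraquat arrays mirror each other (r = -0.497 and 0.497 with control replicate 3), so their matches are not independent. With 2 or 3 arrays a group, small differences in dim genes cannot be resolved.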

Other observations

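PGRP-LA, PGRP-LE and PGRP-SC2, which had no call in any contrast, also had close neighbours in pattern, given here as descriptions over 11 arrays and chosen after their values were seen. PGRP-SC2 was most like CG17192 (r = 0.993), CG12374 (0.988) and the serine protease gene Jon25Bi (0.976). Jon25Bi stood at 7.49 and 9.71 log2 on joint exposure replicates 1 and 2 and at most 2.31 elsewhere. It passed the low-value filter only through those arrays, where PGRP-SC2 was high, and its r rests on them. CG17192 averaged 8.33 log2 in the joint exposure, 2.40 with paraquat, 2.11 with nicotine and 3.02 in control, so its means lay under log2 4 outside the joint exposure. PGRP-LA was most like CG5397 (r = 0.958) and the drosomycin-like gene Drsl5 (0.955), and PGRP-LE like CG6769 (0.945), which averaged 9.57 log2 in the joint exposure, 9.62 with paraquat, 8.69 with nicotine and 8.47 in control.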
